A study of Mus musculus with 2 samples.

Results

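The genes described here encode the SR and hnRNP splicing factors of the mouse, in open chromatin maps of the hippocampus. Members were the autosomal protein-coding genes of GENCODE M21 whose symbol is Srsf followed by digits or starts with Hnrnp. This gave 30 genes, 11 Srsf and 19 Hnrnp, of 20807 autosomal protein-coding genes. The choice used symbols and no measured value. DNase-seq, which maps DNA that the nuclease DNase I can reach, was available as 2 libraries, biological replicates 1 and 2 of 1 group. Both came from the layer of hippocampus of B6CASTF1/J females aged 14 days, and each label names 3 females. B6CASTF1/J is the first-generation cross of C57BL/6J and CAST/EiJ, so each nucleus carries both parental genomes, while all printed sequence is the C57BL/6J reference. The labels give no treatment and no comparison group. They name the same donor identifier for both libraries and do not say whether the animals or pools were separate, so the spread between the libraries may be technical. No contrast existed to test, and each result is given in both libraries beside the same measure over all genes.

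SR proteins carry RNA recognition motifs and a tail rich in arginine and serine. They bind enhancers in exons, help the spliceosome recognise splice sites, and several of them also shuttle with messenger RNA to the cytoplasm. The hnRNPs are a mixed group of abundant RNA-binding proteins that coat nascent transcripts, and many of them oppose SR proteins at splice sites, package RNA or carry it along axons and dendrites. In mammals, many genes of both families hold exons that introduce early stop codons. Transcripts with such poison exons are destroyed by nonsense-mediated decay, a route by which several of these proteins limit their own amount. Neurons splice a large share of their genes in cell-type-specific ways, and both families are widely expressed in brain.

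The sequences below carry the promoter results. They are stretches around footprints, which are short runs protected from DNase I. The footprints overlapped between the libraries and held a consensus word, for the 3 genes of each family with the highest promoter signal by percentile. Not every footprint lay inside a called peak, and the printed Hnrnpl stretch overlapped no peak of replicate 1. Stretches made mostly of exon bases are not printed. From the rest, at most 2 per gene were picked after their words were seen. Those left out hold a Sp/KLF word alone in Srsf5, Srsf7 and Hnrnpul1, further CCAAT words in Hnrnpc and Hnrnpul1, and TGACG with a Sp/KLF word in Hnrnpl. Each stretch holds the footprints of both libraries with 15 bp on either side. Capitals mark a consensus word on either strand that lies within 5 bp of the footprints. Words farther out stay in lower case, as a Sp/KLF word does in Srsf7 and CGTCA in Hnrnpc at 190 bp. All sequences run 5′ to 3′ on the gene's strand, and positions are mm10.
Srsf3, chr17:29032555-29032620, plus strand, centred 40 bp before the annotated 5′ end: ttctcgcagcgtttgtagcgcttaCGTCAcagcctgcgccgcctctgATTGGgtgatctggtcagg
Srsf7, chr17:80207341-80207390, minus strand, centred 58 bp before the 5′ end: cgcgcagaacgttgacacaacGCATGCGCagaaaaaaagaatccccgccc
Srsf5, chr12:80945449-80945512, plus strand, centred 24 bp before the 5′ end: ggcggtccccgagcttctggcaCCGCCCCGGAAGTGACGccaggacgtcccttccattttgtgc
Hnrnpc, chr14:52104188-52104248, minus strand, centred 190 bp before the 5′ end: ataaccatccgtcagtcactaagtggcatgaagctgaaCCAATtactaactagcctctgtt
Hnrnpc, chr14:52104296-52104377, minus strand, centred 308 bp before the 5′ end: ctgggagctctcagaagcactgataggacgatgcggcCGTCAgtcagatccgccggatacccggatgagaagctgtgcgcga
Hnrnpul1, chr7:25754830-25754910, minus strand, centred 113 bp before the 5′ end: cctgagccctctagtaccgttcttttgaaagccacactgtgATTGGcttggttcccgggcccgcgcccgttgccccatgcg
Hnrnpl, chr7:28810547-28810609, plus strand, centred 2037 bp after the 5′ end: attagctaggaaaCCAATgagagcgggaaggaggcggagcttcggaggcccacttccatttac
CCAAT, read ATTGG on the other strand, is the word of NFY and is in the stretches picked for Srsf3, Hnrnpul1 and Hnrnpl and in 1 of those for Hnrnpc. CGTCA is TGACG read on the other strand, the core of the CREB/ATF word. Srsf7 holds the NRF1 word GCATGCGC. In Srsf5 a Sp/KLF word, an ETS word and TGACG run into each other without a gap. A word is a match of letters, not evidence that a factor was bound.

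The longer deposited peak list held 115699 peaks in replicate 1 and 167829 in replicate 2. The scaling of the authors' signal is not stated and the depth in reads is unknown, so signal was ranked within a library only. Median signal over all peaks was 0.821 and 0.485. The labelled tissue was checked at the promoters of marker genes. A promoter peak in both libraries was present at 5 of 5 excitatory neuron genes, 4 of 4 astrocyte genes, 3 of 4 microglia genes and 2 of 4 oligodendrocyte lineage genes. Of the inhibitory neuron genes 1 of 3 had a peak in both libraries, with 3 of 3 in replicate 1, and of the endothelial genes 1 of 3. None of the 4 genes of other tissues (liver, heart muscle and pancreas) had a peak in both libraries, and Ins2 had 2 in replicate 1, with 0.198 at most. Over all autosomal protein-coding genes the share with a promoter peak in both was 64.5%, so the check is weak. Among marker genes with a peak in both, signal ran from 0.555 and 0.283 in Pecam1 to 6.99 and 3.43 in Neurod2. The medians over all genes with a promoter peak were 5.78 and 2.6. The tissue is a mixture, so an open promoter in fewer cells and a less open promoter in every cell cannot be told apart.

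A promoter peak was present in both libraries at all 30 Srsf and Hnrnp genes, where a promoter is the sequence within 500 bp of any annotated transcript start. Over all autosomal protein-coding genes the share was 64.5%. The median signal of the strongest promoter peak was 15.3 in replicate 1 and 6.01 in replicate 2 for the members, against 5.78 and 2.6 for all genes with a promoter peak. Expressed as a percentile among those genes, the median member stood at 91.6 and 86.6. In replicate 1, 17 of 30 members stood at or above the 90th percentile, and in replicate 2, 12 of 30. Every member except Srsf12 was above the 50th percentile in both libraries. The members also carried more annotated transcript starts than genes at large, a median of 7 against 3, and the strongest peak over all starts of a gene was taken. At the annotated 5′ end alone, which allows 1 window per gene, the median member signal was 14.5 in replicate 1 and 5.99 in replicate 2, against 5.71 and 2.6 over all genes with a peak there.

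The Srsf genes spread over most of the range. Srsf3, whose protein is among the smallest SR proteins and also works in messenger RNA export, was the highest, at 19.2 in replicate 1 and 8 in replicate 2. Srsf7, another SR protein that serves export, had 18.8 and 6.18, and Srsf5 had 13.6 and 6.87. These genes and the next in order, Srsf1, which encodes the founding member of the family (13.8 and 5.91), and Srsf2, whose protein stays in the nucleus (15.7 and 5.43), all lay at the 82.3 percentile or higher in both libraries. Their order is not settled. Srsf2 was above Srsf5 in replicate 1 and below it in replicate 2.

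At the low end stood Srsf12 by a wide margin. Its strongest promoter peak reached 1.65 in replicate 1 and 0.467 in replicate 2, at the 17.5 and 8.09 percentiles. Srsf12 encodes an SR-related protein known in human as a splicing repressor. Srsf6 followed with 7.04 and 3.08, then Srsf10, a splicing repressor when it loses its phosphates, with 10.8 and 3.5. Srsf4 had 9.81 and 3.54, and Srsf9 had 9.65 and 3.75. These last 4 genes lay between the 57.1 and 77.6 percentiles in both libraries. Srsf6 was the lowest of them in each, and the order of the other 3 changed. Srsf11, at 9.48 and 4.2, was below Srsf9, Srsf4 and Srsf10 in replicate 1 and above them in replicate 2. In percentiles, the gap between Srsf12 and Srsf6 was the widest between neighbours in the order of the family.

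The Hnrnp genes were packed near the top. Hnrnpc, whose protein binds uridine tracts in nascent transcripts, reached 28.8 in replicate 1 and 12.7 in replicate 2. It ranked 17th and 14th among 14234 and 13774 genes with a promoter peak. Its peak was centred 322 bp before the annotated 5′ end in replicate 1 and 222 bp before it in replicate 2. The stretch printed above at 308 bp lies inside the peak of each library, and that at 190 bp inside the peak of replicate 2. Hnrnpul1, an hnRNP U-like protein with a part in the response to DNA damage, had 19.8 and 9.12. Hnrnpl, which binds CA-rich repeats, had 18 and 8.15. Hnrnpr, found in axons of neurons, had 18.9 and 7.94, and Hnrnpa2b1, which carries messenger RNA in transport granules, had 20.2 and 7.34. All 5 were at the 93.5 percentile or higher in both libraries. Hnrnpc led in both, and the order of the other 4 changed.

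The lowest Hnrnp promoters were still above the median gene. Hnrnpd, which binds AU-rich elements and speeds the decay of messages, had 9.21 in replicate 1 and 3.18 in replicate 2, at the 70.1 and 58.5 percentiles. Hnrnpa0 had 14.3 and 4.11, Hnrnpdl had 22 and 4.67, and Hnrnpu, a nuclear scaffold protein, had 14.8 and 4.72. Hnrnpm had 14.4 and 5.73. Hnrnpa0, Hnrnpdl and Hnrnpu stood at the 70.1, 75.5 and 76.2 percentiles in replicate 2 but at 89.3, 98.9 and 90.5 in replicate 1, where Hnrnpdl was exceeded only by Hnrnpc among the Hnrnp genes. The remaining 9 Hnrnp genes ran from 12.9 to 21.3 in replicate 1 and from 5.86 to 7.31 in replicate 2.

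**Figure D1:**
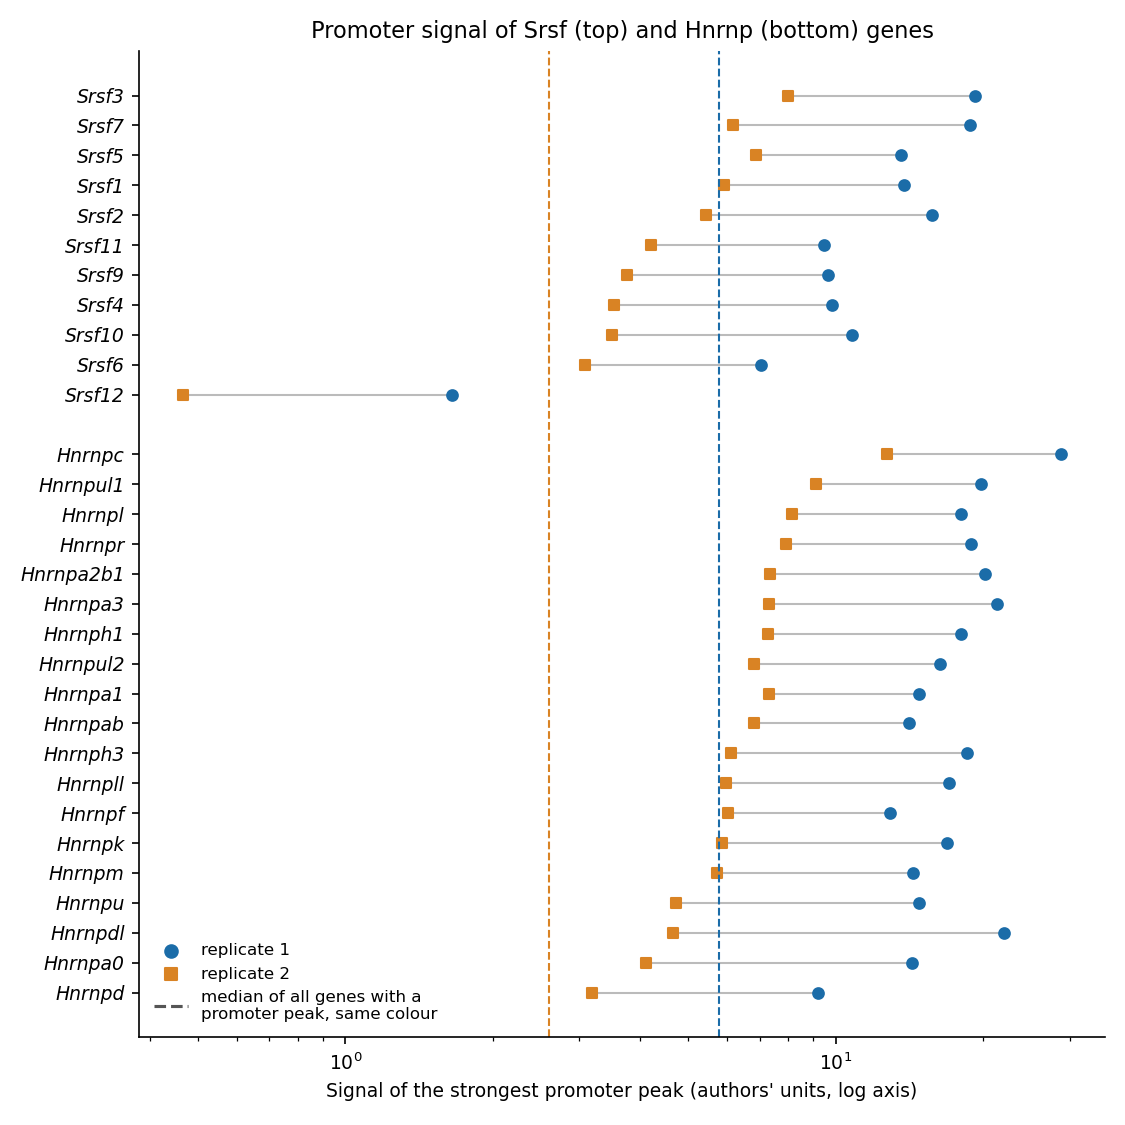
Signal of the strongest promoter peak (horizontal log axis, authors' units) of each Srsf and Hnrnp gene in replicate 1 (circles) and replicate 2 (squares), with dashed lines at the medians of all genes with a promoter peak, 5.78 and 2.6. Hnrnpc is farthest to the right with 28.8 and 12.7, and Srsf12 alone lies left of both dashed lines with 1.65 and 0.467.

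By family, the median Hnrnp promoter signal was 17 in replicate 1 and 6.81 in replicate 2, at the 94.9 and 91.3 percentiles. The median Srsf signal was 10.8 and 4.2, at the 77.6 and 71.1 percentiles. At or above the 90th percentile stood 14 of 19 Hnrnp genes in replicate 1 and 10 in replicate 2, and 3 of 11 Srsf genes in replicate 1 and 2 in replicate 2. The families were not compared with a test. A list of 42 other autosomal splicing genes covered snRNP proteins, SF3 subunits, U2AF, core spliceosome factors, SR kinases and PTB proteins. It also held Tra2a, Tra2b, Son, Srrm1 and Srrm2, which encode SR-related proteins, so the list is not free of that type. The median signal of the 42 genes was 10.6 in replicate 1 and 5.12 in replicate 2, close to that of the Srsf genes. Of these, 41 had a promoter peak in both libraries, all except Sf3b5, a subunit of the complex that recognises the branch point. The highest was Snrnp70, a protein of the U1 snRNP, with 29.7 and 12.5, and the lowest with a peak was Srpk2, a kinase of SR proteins, with 3.49 and 1.21.

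**Figure D2:**
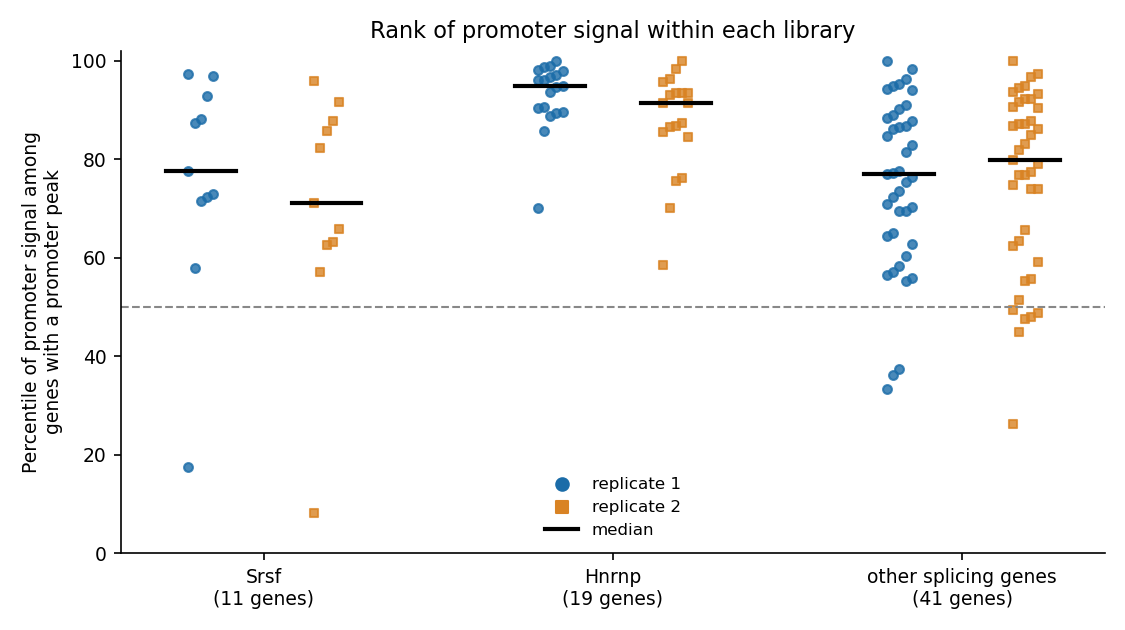
Percentile of promoter signal among genes with a promoter peak (vertical axis) for Srsf genes, Hnrnp genes and 41 other splicing genes with a peak, in replicate 1 (circles) and replicate 2 (squares), with medians as black bars. The Hnrnp medians lie at 94.9 and 91.3 and the Srsf medians at 77.6 and 71.1, above the dashed line at the 50th percentile.

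In some Hnrnp genes the strongest peak was not at the annotated 5′ end. A peak within 500 bp of the 5′ end was present in both libraries at 26 of 30 members (86.7%), against 58.5% of all genes. It was present at 11 of 11 Srsf genes and 15 of 19 Hnrnp genes. Hnrnpf, Hnrnpm and Hnrnpk had none there in either library, and Hnrnph1 had none in replicate 1 and 1 in replicate 2. The strongest peak was centred within 500 bp of the 5′ end in 11 of 11 Srsf genes and 12 of 19 Hnrnp genes (63.2%) in each library, against 82.5% and 81.3% of all genes open at a promoter in both.

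Hnrnpf (chr6:117900324-117925622), whose protein binds runs of guanine, had its strongest peak farthest downstream of all members. Its strongest peak, at 12.9 in replicate 1 and 6.03 in replicate 2, was centred 6436 bp after the 5′ end in both. A further open start window was centred 16818 bp after it, where peaks of 1.65, 2.2 and 1.08 were called in replicate 1 and of 0.583 and 0.467 in replicate 2. At the annotated 5′ end of Hnrnpf no base within 500 bp passed the deposited FDR limit of 0.05 in either library. That window was poor in CpG, with an observed over expected ratio of 0.243, against a median of 0.923 over the members. Hnrnpm (chr17:33646233-33686860) was alike, with no base under the limit, a CpG ratio of 0.0826 and a strongest peak of 14.4 and 5.73 centred 1350 and 1400 bp downstream. Both annotated 5′ ends belong to protein-coding transcripts.

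Hnrnpk, a protein with KH domains that binds poly-C, had peaks of 16.9 and 13.9 in replicate 1 centred 1112 and 792 bp after the 5′ end, and of 5.02 and 5.86 in replicate 2 at 1122 and 782 bp. Which of both was the stronger changed between the libraries. Hnrnpl had 6 promoter peaks in replicate 1 and 7 in replicate 2, the most of any member in each library. Its peaks lay in 3 separate start windows open in both libraries, and the outermost, 13150 bp after the 5′ end, had a signal of 2.32 and 1.08. Hnrnpu was open at the 5′ end (14.8 and 4.72) and again 1216 bp downstream (9.51 and 3.18). Srsf11 was open at the 5′ end and 4858 bp downstream, where the peak had 6.48 and, centred at 4848 bp in replicate 2, 2.87.

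Overlapping windows around the starts of a gene were merged into start windows. The members had 80 such windows, of which 37 (46.2%) held a peak in both libraries, 2 in 1 library and 41 in neither. Over all genes 34% held a peak in both. More than 1 open window was found in 6 of 30 members (20%), namely Srsf9, Srsf11, Hnrnpf, Hnrnpk, Hnrnpl and Hnrnpu, against 9.53% of all genes. The other 24 members had a single open window each. The share over all genes counts those with no open window. Of the 20807 genes, 11417 had 1 open window and 1982 had more than 1. The members also had more annotated starts, a median of 7 against 3. By the type of transcript, 38.1% of the members' 118 protein-coding starts lay inside a peak in both libraries, against 34.8% of such starts over all genes. For the 74 retained-intron starts of the members it was 18.9%, against 23.9%, and for the 35 starts of nonsense-mediated decay transcripts 34.3%, against 37.2%.

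**Figure D3:**
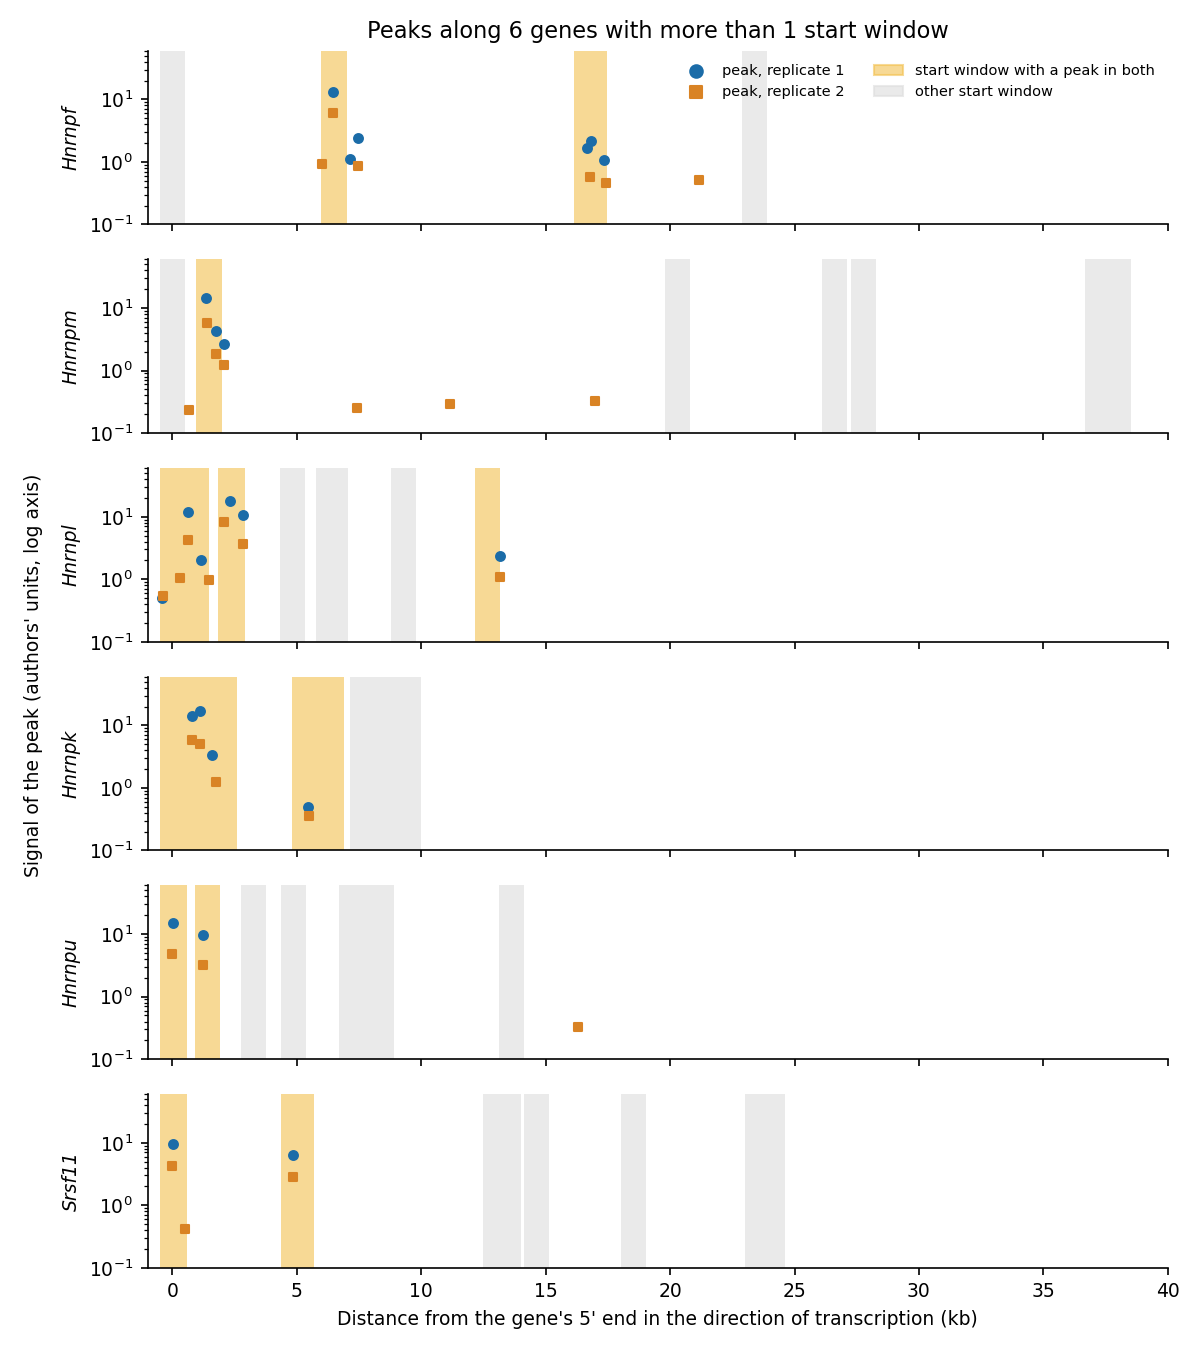
Signal of each peak (vertical log axis, authors' units) against its distance from the annotated 5′ end in kb for 5 Hnrnp genes and Srsf11, in replicate 1 (circles) and replicate 2 (squares), with start windows shaded yellow where both libraries have a peak and grey otherwise. The windows at the 5′ ends of Hnrnpf and Hnrnpm are grey, and their strongest peaks lie 6436 bp downstream in Hnrnpf and 1350 and 1400 bp downstream in Hnrnpm.

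The open stretch at the members' 5′ ends was broad. Within 500 bp of the 5′ end, the mean share of bases with an FDR under 0.05 was 84.9% in replicate 1 and 81.3% in replicate 2 over the members, against 46.8% and 43.1% over all genes and 70.7% and 66.4% over genes open in both libraries, meaning with a promoter peak in each. The whole window passed in 16 of 30 members in replicate 1 and 13 in replicate 2, or 53.3% and 43.3%. Over all genes it passed in 12% and 11.4%, and over genes open in both libraries in 18.5% and 17.6%. The difference was clearest downstream. From 800 to 900 bp after the 5′ end, 70.2% and 61.4% of the members' bases passed, against 30.4% and 27.6% at genes with a promoter peak. From 500 to 600 bp before it, 70.8% and 61.3% of the Hnrnp bases passed, 31.7% and 38.1% of the Srsf bases, and 25.8% and 29.9% at genes with a promoter peak. Next to the 5′ end the Hnrnp genes were not higher. In the 100 bp before it, 83.7% and 79.6% of their bases passed, against 84.8% and 82.4% at genes with a promoter peak. Srsf12 was the narrowest Srsf promoter by this measure, with 57.7% and 33.7% of its window. The median CpG observed over expected ratio was 0.923 for the members against 0.715 for genes with a promoter peak, and the median GC content was 62.7% against 58.5%. Their part in the result was not tested.

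**Figure D4:**
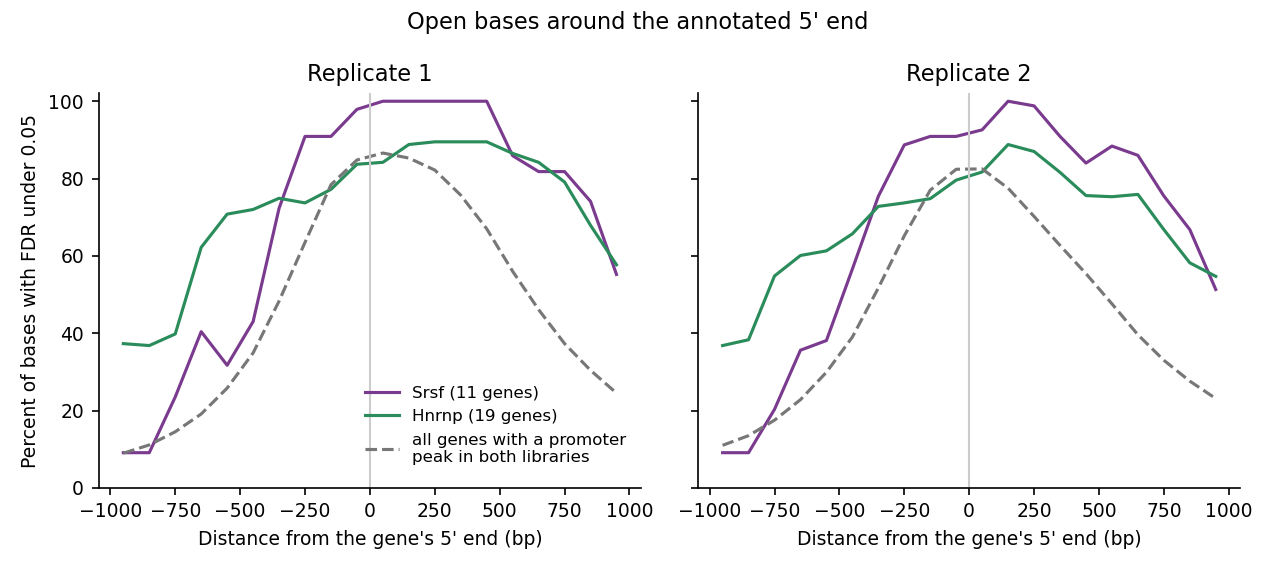
Percent of bases with an FDR under 0.05 (vertical axis) in 100-bp steps to 1000 bp on either side of the annotated 5′ end, for 11 Srsf genes, 19 Hnrnp genes and all genes open in both libraries, with replicate 1 left and replicate 2 right. From 100 bp downstream of the 5′ end both families stay above the dashed line, and beyond 500 bp upstream the Hnrnp line is the highest. In the 100 bp on either side of the 5′ end the Hnrnp line lies below the dashed line.

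Several of these promoters are shared with a neighbour transcribed the other way. In 8 of 30 members (26.7%) a start of another protein-coding gene lay within 500 bp of a start of the member, against 13.5% of all genes. The members' windows were longer, with a median of 3086 bp against 2003 bp over all genes, and the part of this in the share was not tested. All 8 neighbours lie upstream on the opposite strand. By their nearest starts, Srsf11 and Lrrc40 lie 23 bp apart, Hnrnpk and Rmi1 51 bp, Hnrnph3 and Pbld2 98 bp, and Hnrnpd and 4930524J08Rik 123 bp. Srsf7 and Ttc39d lie 153 bp apart, Srsf2 and Mfsd11 201 bp, Hnrnpdl and Enoph1 321 bp, and Hnrnpa2b1 and Cbx3, which encodes a heterochromatin protein, 466 bp. A peak overlapped the stretch between the starts of both genes in both libraries for 7 of the 8 pairs. For Hnrnph3 it did so in replicate 2 alone. In Srsf2, Srsf7, Srsf11, Hnrnpa2b1 and Hnrnpd that peak was the member's strongest in each library, so its signal belongs to both genes. In Hnrnpdl it was not, with 11.3 and 4.44 between the starts of Hnrnpdl and Enoph1, against 22 and 4.67 within Hnrnpdl.

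The order of the members differed in part between the libraries, and no rank correlation was computed. The ratio of promoter signal in replicate 1 to that in replicate 2 had a median of 2.54 over the members, from 1.98 in Srsf5 to 4.71 in Hnrnpdl, against a median of 2.41 over all genes open in both libraries. Hnrnpdl, an hnRNP D-like protein, stood at the 99.5 percentile of that ratio. Srsf12 with 3.53 stood at 92.7 and Hnrnpa0 with 3.47 at 91.6. For Hnrnpdl the peak that differed most lay 654 bp after its 5′ end. The strongest promoter peaks of both libraries overlapped in 26 of 30 members (86.7%), against 93.2% of all such genes. In Hnrnpl, Hnrnpk, Hnrnpa0 and Hnrnpul2 they were 20, 100, 120 and 180 bp apart.

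Away from starts the members had few peaks. A peak inside the gene body and over 500 bp from every start of the gene was called in both libraries in 6 of 30 members (20%), against 46.1% of all genes and 36% of the 13996 genes within the members' range of length (2678 to 48506 bp). In replicate 1, 8 members (26.7%) had such a peak, against 50.8% of all genes and 41.9% within the length range. In replicate 2, 11 members (36.7%) had it, against 57.1% and 49.3%. In neither library had 17 members (56.7%) any, against 38.2% and 44.8%. The members' peaks numbered 10 in replicate 1 and 23 in replicate 2. Gene body outside start windows held 0.252 peaks per 10 kb in replicate 1 and 0.579 in replicate 2 for the members, against 0.639 and 0.722 for genes within their length range. The Srsf genes had 0.272 and 0.182, the Hnrnp genes 0.244 and 0.732. The Hnrnp rate was below that of the length range in replicate 1 and beside it in replicate 2.

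The 6 genes with such a peak in both libraries were Srsf6, Hnrnpab, Hnrnpd, Hnrnpf, Hnrnpll and Hnrnpul2. The strongest lay in an intron of Hnrnpab (chr11:51605941-51606200 in replicate 1), at 4.48 in replicate 1 and 1.7 in replicate 2. In an intron of Hnrnpf a peak of 2.42 and 0.871 lay within 500 bp of a start of another gene, 4933440N22Rik. In Hnrnpul2 a peak of 1.99 and 1.4 covered a coding exon (chr19:8830781-8831000 in replicate 1). Hnrnpll, which controls splicing of the receptor CD45 in T cells, had the most, 3 peaks in replicate 1 and 5 in replicate 2. Of its peaks, 2 in introns overlapped between the libraries, with 1.5 and 0.611 at chr17:80061141-80061580 and 1.07 and 0.756 at chr17:80054001-80054220, positions of replicate 1. The peak at chr17:80054001-80054220 lay within 500 bp of a start of another gene, AC122253.3, in both libraries. In Hnrnpd the peaks of the libraries lay in different places, and that of replicate 1 lay within 500 bp of a start of Gm17092. Hnrnpm had 4 peaks in replicate 2, none above 0.329, and none in replicate 1. All these signals were below those of the same genes' promoters.

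Srsf10 and Srsf9 had 1 such peak each, in replicate 1 only, with 0.752 and 0.783. Among the other Srsf genes it was Srsf6 alone that had any. By place, 7 of the 10 peaks of replicate 1 were in introns and 2 in coding exons of protein-coding transcripts. The other 1 was in an exon found only in transcripts not typed as protein-coding, which include those of nonsense-mediated decay. Of the 23 peaks of replicate 2, 13 were in introns, 2 in coding exons, 3 in untranslated exons and 5 in exons of such other transcripts alone.

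Poison exons were approached through exon parts found in annotated nonsense-mediated decay transcripts and in no protein-coding transcript of the gene. Of the members, 9 had such parts of at least 20 bp over 500 bp from every start of the gene, 12 in all. None of the 9 had a peak on them in both libraries, against 3.78% of the 2197 genes with such parts. In each library alone 1 of the 9 (11.1%) had such a peak, against 5.33% in replicate 1 and 7.01% in replicate 2 over all such genes. In Srsf9 it was a peak of replicate 1 with a signal of 0.783, which covered 83 bp of a part of 358 bp. In Srsf6 it was a peak of replicate 2 with 0.548, which reached 9 bp into a 103-bp extension of an exon. The Srsf6 peak of replicate 1, with 0.729, lay over the same coding exon and ended 14 bp before the extension. The peaks of Srsf6 in replicate 2 and of Srsf9 are printed with the bases of the decay-specific part in capitals.
Srsf6, replicate 2, chr2:162932849-162932988, mm10, plus strand: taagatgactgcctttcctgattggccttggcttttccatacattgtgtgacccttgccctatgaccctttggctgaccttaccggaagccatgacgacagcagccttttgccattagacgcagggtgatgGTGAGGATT
Srsf9, replicate 1, chr5:115328260-115328429, mm10, plus strand: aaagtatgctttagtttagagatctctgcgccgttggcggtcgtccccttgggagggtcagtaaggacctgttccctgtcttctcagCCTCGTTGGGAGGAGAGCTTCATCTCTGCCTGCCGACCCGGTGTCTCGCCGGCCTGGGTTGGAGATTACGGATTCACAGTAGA
The parts of Srsf3, Srsf4, Srsf5, Hnrnpa1, Hnrnpd, Hnrnpll and Hnrnpu that kept their distance from starts had no peak in either library.

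The promoter windows held a median of 14 footprints per member in replicate 1, from 5 to 27, and 12 in replicate 2, from 3 to 23, against 9 and 6 over genes open in both libraries and 6 and 4 over all genes. The members' windows were longer, with a median of 3086 bp against 2389 bp for open genes, and 55% and 73.1% of their footprints lay inside peaks, against 73.8% and 82.8%. Per kb of promoter peak, the members had 16.2 footprints inside peaks in replicate 1 and 15.6 in replicate 2, against 15.2 and 13.2 for open genes. Hnrnpl had the most in both libraries, tied with Hnrnpdl in replicate 1, with 27 footprints in replicate 1 and 23 in replicate 2. The fewest were 5 and 5 in Hnrnpab and 7 and 3 in Srsf12. Of the members' footprints in replicate 1, 258 of 456 (56.6%) overlapped a footprint of replicate 2, and in replicate 2, 256 of 360 (71.1%) overlapped one of replicate 1. Over genes with a promoter peak the shares were 47.2% and 63%.

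The footprints, extended by 5 bp on each side, and 300-bp windows centred on each gene's strongest promoter peak were searched on both strands for 11 consensus words. The members' 258 shared footprints of replicate 1 were also joined with the footprint of replicate 2 that they overlapped. Of these longer stretches, extended by 5 bp, 104 (40.3%) held a word. The same share over all genes was not computed. CCAAT, the word of NFY, was in 6.36% of the members' footprints in replicate 1 and 8.33% in replicate 2, against 3.03% and 4.01% of promoter footprints of all genes. The 300-bp window held it in 63.3% and 66.7% of the members, against 36.6% and 39.2% of genes open in both libraries. TGACG, which the full CREB/ATF word TGACGTCA contains, was in the window of 56.7% and 53.3% of the members, against 33.9% and 33.7%. The full word was in no member's window, against 3.91% and 3.88%. It was in 1 member footprint in each library (0.219% and 0.278%, against 0.442% and 0.597%), a shared footprint of Hnrnpu centred 1226 bp after the 5′ end.

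ATGGCGG, the word of YY1, was in 3.07% and 2.22% of the members' footprints, against 0.929% and 0.953%. Its share of windows was 23.3% and 20% for the members, against 11% and 9.97%. TATAAA, the TATA box, was in 3 of 30 members' windows in each library (10%), against 3.5% and 4.13%. The Sp/KLF word GGGCGG was common to both, in 80% and 66.7% of the members' windows against 70.4% and 66.9%. CACGTG, the E-box, was in 13.3% and 16.7%, against 10.3% and 10.5%, and the ETS word CCGGAAG in 20% and 23.3%, against 18.6% in each library. In footprints both words were less frequent at the members than over all genes, the E-box with 0.658% and 0.278% against 0.745% and 0.805%, and the ETS word with 0.877% and 1.11% against 1.28% and 1.51%. The rarer words NRF1 (GCATGCGC), ZBTB33 (CTCGCGAG) and ZNF143 (ACTACAA) were in the windows of at most 2 members each. For NRF1 this was 3.33% and 6.67% of the members, against 6.22% and 6.16%. For ZBTB33 it was 6.67% in each library, against 2.1% and 2%, and for ZNF143 3.33% in each, against 3.8% and 4.31%. The median GC content within 500 bp of the 5′ end was 62.7% for the members against 58.5% at genes with a promoter peak, and its part in the word shares was not tested.

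**Figure D5:**
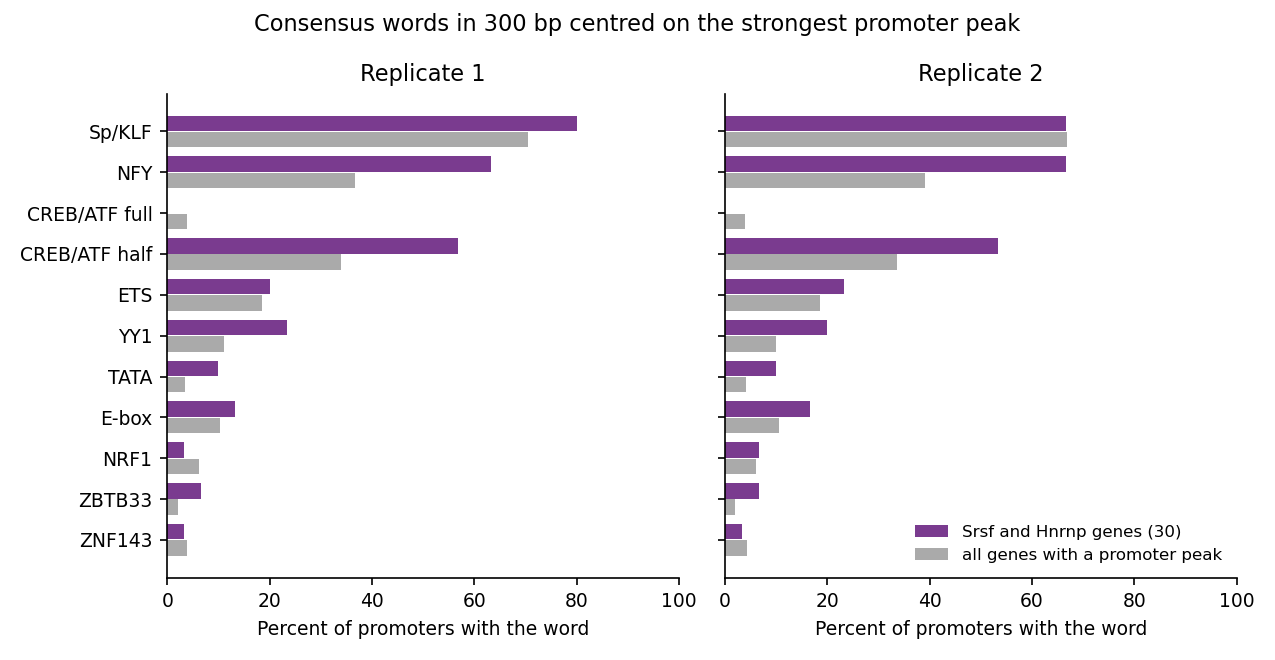
Percent of promoters whose 300-bp window on the strongest peak holds each consensus word (horizontal axis), for 30 Srsf and Hnrnp genes (purple) above all genes open in both libraries (grey), with replicate 1 left and replicate 2 right. The NFY bars stand at 63.3% and 66.7% for the members against 36.6% and 39.2%, and the Sp/KLF bars lie close together in replicate 2.

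Some members are neighbours on their chromosome, although none share a promoter. Hnrnpd and Hnrnpdl lie 54638 bp apart on chromosome 5, with promoter percentiles of 70.1 and 58.5 for Hnrnpd and 98.9 and 75.5 for Hnrnpdl. Srsf7 and Hnrnpll lie 137745 bp apart on chromosome 17, Hnrnpa0 and Hnrnpk 262585 bp on chromosome 13, and Srsf10 and Hnrnpr 441033 bp on chromosome 4. The last pair held Srsf10 among the lowest Srsf promoters and Hnrnpr among the highest Hnrnp promoters.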

How the data were processed

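DNase-seq libraries of 1 group were described as replicates 1 and 2, named by the labels. Per the deposited listings, the peaks, q-values and footprints of a library were made by the authors from its own mm10 alignment without pooling. No source used here names the aligner, callers or versions. The authors' q-values are the false discovery rate (FDR) of DNase cutting, listed for runs of bases under 0.05. The authors deposited 2 peak lists per library, each with a signal of unstated scaling, and the longer was used. The deposited footprint score is 0.01 throughout and ranks nothing.

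Members, lists and words were chosen with earlier results of these data known. Starts came from GENCODE M21 and sequence from the GRCm38.p6 assembly, read with pysam 0.24.0. Overlaps needed 1 bp, promoters reached 500 bp either side of a start, and numpy 2.4.6 and Python 3.11.15 were used. Overlap code was tested on simulated intervals. Percentiles were taken within a library. With 1 group there was no test and no p-value. Named genes were the 5 highest and 5 lowest of each family by the lower percentile, those with most gene body peaks, with a peak on a decay-specific exon part or with a neighbouring start. Other genes were named after their values were seen, among them the genes open away from the 5′ end and those whose libraries differed. Alternatives covered the peak list, window, starts, overlap rules, FDR limit and each library alone.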

Additional observations from a re-analysis of the deposited data

How the results depend on the processing

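Of 31 alternative values of counts, footprints and open bases, 21 stayed within the spread of the libraries or within 1.5 times of the count. Some of these could not have moved. For footprints and open bases, the value of 1 library always lies within that spread of the mean of both. Footprint counts did not depend on the peak list. All 30 members open in both libraries had to stay open in each library alone and in the window of 1000 bp. The median promoter signal is scaled differently in the libraries and is given per library, from 14.5 to 15.3 in replicate 1 and from 5.95 to 6.01 in replicate 2 over the 6 settings. All 30 members kept a promoter peak in both libraries under every peak list, window and start set tried except the gene's 5′ end alone, which left 26. Members with a gene body peak in both libraries numbered 10 (33.3%, against 48.2% of all genes) when peaks kept their distance from protein-coding starts only. They numbered 2 (6.67%, against 40% of all genes) when peaks kept 1000 bp from every start of any gene. Promoter footprints per member, a mean of the libraries' medians of 13, were 10.2 with a window of 250 bp, 14.8 with 1000 bp, 10.2 at the 5′ end alone and 8 when counted inside peaks only, where genes with a promoter peak had 6 in replicate 1 and 5 in replicate 2. The share of bases under the FDR limit was 87% within 250 bp, against 83.1% within 500 bp. With each library alone, gene body peaks were found in 8 to 11 members and peaks on decay-specific exon parts in 1 member in either library. An alternative chosen after seeing the data, keeping those parts from protein-coding starts only, left the count in both libraries at 0 of 12 members, against 5.75% of all such genes. In replicate 1 it was 1 of them (8.33%, against 8.13%) and in replicate 2 it was 2 (16.7%, against 9.37%). Causes of these shifts other than the wider or narrower windows were not tested. No paired analysis was possible because there was 1 group. Counts of words in 30 promoters rest on few genes, and with 2 libraries and no stated depth, a missing peak does not show that a site was closed.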
